A study of Homo sapiens with 16 samples.

Results

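The genes described here encode secreted matrix glycoproteins and the enzymes that act on them: the adhesive glycoprotein fibronectin (FN1), the matricellular proteins tenascin C (TNC), thrombospondin 1 (THBS1) and SPARC, the fibulins FBLN1 and FBLN5, the secreted protein CCDC80, the peroxidase peroxidasin (PXDN), the serine protease HTRA1 and the lysyl oxidase LOX. They were taken by name, 10 genes in all, from 42665 gene names on the array. Every probe annotated with 1 of these names was used, which gave 17 probes of 58201. RNA was measured on 16 one-colour Agilent arrays, with 4 arrays in each of 4 conditions of 16HBE cells, a human bronchial epithelial line immortalised with the SV40 large T antigen.

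The conditions were 16HBE cells with wild-type MET and no HGF (16HBE-WT), the same cells with HGF at 20 ng/mL for 24 hours (16HBE-WT+HGF), 16HBE ex14 cells with no HGF (16HBE-ex14) and 16HBE ex14 cells with the same dose of HGF for the same time (16HBE-ex14+HGF). All cells were kept without serum for 2 hours before stimulation. MET is the receptor of hepatocyte growth factor (HGF), and the 16HBE ex14 cells carry a genome edit at the splice donor of MET exon 14, so that the receptor lacks the stretch this exon encodes. These cells are 1 edited clone (F), hence the edit and any other difference of the clone from the parental line cannot be told apart. By the study's methods, the replicates of a condition came from separate cultures grown a week apart. The comparisons asked how the genes answered HGF in each genotype, how the genotypes differed without and with HGF, and whether the answers to HGF differed.

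Matrix glycoproteins are secreted, assemble outside the cell and bind integrins, collagens and growth factors. Fibronectin forms fibrils that cells grip through integrins. Matricellular proteins such as tenascin C, thrombospondin 1 and SPARC modulate adhesion rather than carry load, fibulins take part in basement membranes and elastic fibres, and peroxidasin and lysyl oxidases link matrix proteins covalently. Epithelial cells make part of this matrix themselves, while fibroblasts supply much of the matrix of the airway wall.

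The probes are oligonucleotides of 60 bases. One probe each of FBLN1, CCDC80, FN1 and THBS1 is given here, to show what was read for genes called between the genotypes. The CCDC80 and FN1 probes represent their genes, and the FBLN1 and THBS1 probes are second readings set beside the brightest probe of the gene in the results. The array annotation gives coordinates on hg19 but no exon or UTR class. The FBLN1 and FN1 probes span more genome than their own length, which means that each crosses a splice junction.
FBLN1 probe (hg19 chr22:45939377-45942994, plus strand): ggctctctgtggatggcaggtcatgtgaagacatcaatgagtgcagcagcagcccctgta
CCDC80 probe (hg19 chr3:112324476-112324535, minus strand): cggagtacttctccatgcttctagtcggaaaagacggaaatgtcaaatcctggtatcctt
FN1 probe (hg19 chr2:216288217-216288895, minus strand): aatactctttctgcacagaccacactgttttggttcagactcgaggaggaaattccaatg
THBS1 probe (hg19 chr15:39874546-39874605, plus strand): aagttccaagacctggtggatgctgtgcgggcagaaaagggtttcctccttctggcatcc

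Levels are given as log2 of the background-corrected intensity minus the log2 of the 75th percentile of that array, so that 0 is the 75th percentile and a step of 1 is a doubling. A probe's level depends on its own sequence and was compared only with itself in other conditions. A probe was tested where 4 or more of the 16 arrays measured it well above background, which left 8 of the 10 genes, without LOX and FBLN5. A gene was represented by its brightest probe, and a change was called where the p-value of limma, adjusted over all 34599 tested probes by Benjamini-Hochberg, was below 0.05 and the fold change exceeded 1.5. Over the series, the 75th percentile of an array lay between 139.5 and 262.8 intensity units, from 201.8 to 262.8 in the 2 ex14 conditions and from 139.5 to 213 in the 2 wild-type conditions. Between 49% and 60.3% of probes were well above background on an array, and no spot was saturated.

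The epithelial markers fitted the labels of the arrays. All 10 epithelial markers were well above background on all 16 arrays, while 7 of 10 fibroblast markers, among them COL1A2, COL3A1, DCN, PDGFRA and THY1, were above background on no array of 16HBE-WT or 16HBE-WT+HGF, and 8 of 10 on none of 16HBE-ex14 or 16HBE-ex14+HGF. LUM was the fibroblast marker called between the genotypes, above background on 8 wild-type arrays and on no ex14 array. It passed the filter for testing through wild-type arrays only, so its call is no support for a difference. With ex14 levels set no lower than the lowest that counted as above background, it was at least 3.06-fold lower in the clone without HGF. With HGF it was at least 2.23-fold lower. The fibroblast markers COL1A1 and PDGFRB were above background on all 16 arrays. So were 2 of 6 endothelial markers (CDH5 and VWF) and 3 of 4 leukocyte markers on the array (PTPRC, CD3E and CD14). Being above background thus does not by itself tell these cell types apart. The mean level of the epithelial list ran from 5.23 to 5.37 in 16HBE-WT and from 4.57 to 4.64 in 16HBE-ex14+HGF. Between these conditions the mean of KRT5 went from 2.62 to -2.26 and that of KRT17 from 1.28 to -1.41, both called lower in the clone. No other epithelial marker was called in any comparison, and they moved both ways, KRT8 from 6.96 to 7.5 and KRT19 from 9 to 8.5. The mean level of the fibroblast list ran from -5.06 to -4.36 in 16HBE-WT and from -5.66 to -5.40 in 16HBE-ex14+HGF. Within that list LUM went from -2.94 to -7, the latter below background, so this is not a measured fold change. Most probes of the list were below background in every condition, which limits what its mean shows. The part of these shifts in the results below was not tested. MET itself was measured at similar levels in all conditions, with means from 4.97 to 5.16 and no call in any comparison. Whether the MET probe lies in exon 14 is not given in the sources used here, so this level does not check the edit. Neither probe of HGF was above background on any array.

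**Figure D1:**
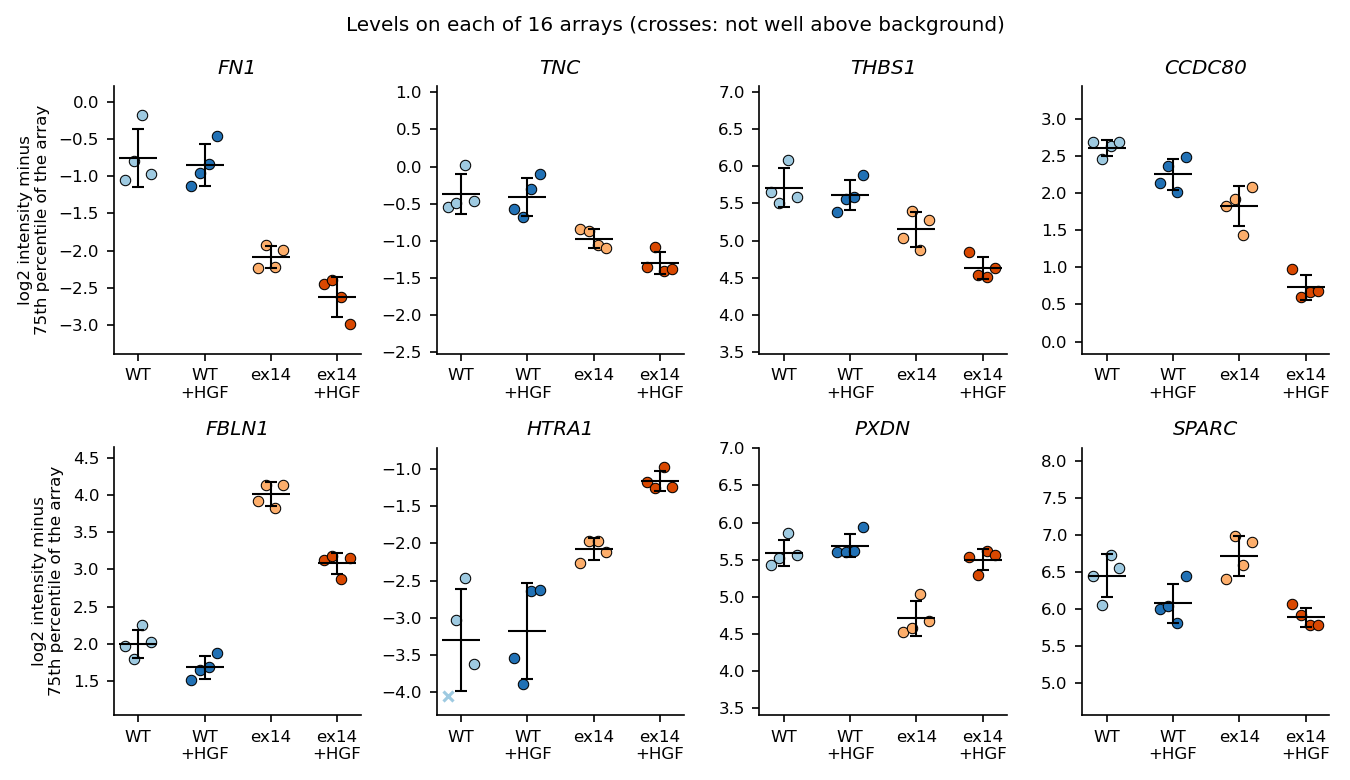
Level of the 8 tested genes on each array, as log2 intensity minus the 75th percentile of the array, by condition. Points are single arrays, bars are the mean and SD of 4 arrays, and each panel spans the same number of log2 units. FN1 and TNC were low in both ex14 conditions, FBLN1 and HTRA1 high in both, and PXDN low in 16HBE-ex14 only.

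Fibronectin, tenascin C and thrombospondin 1, the adhesive and matricellular glycoproteins with integrin-binding sites, were all lower in the clone than in wild-type cells when HGF was present. The log2 difference was -1.77 for FN1, or 3.41-fold, -0.97 for THBS1, or 1.96-fold, and -0.89 for TNC, or 1.85-fold. Without HGF, FN1 and TNC were called lower as well. In neither genotype did HGF itself change any of the 3 past the threshold.

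FN1 was read by 1 probe, annotated to transcript variant 7. It measured -1.05, -0.80, -0.18 and -0.97 on the 4 arrays of 16HBE-WT and -1.13, -0.96, -0.84 and -0.46 in 16HBE-WT+HGF. In 16HBE-ex14 it measured -2.23, -1.93, -2.22 and -1.99, and in 16HBE-ex14+HGF -2.45, -2.40, -2.63 and -2.99. All ex14 arrays thus lay below all wild-type arrays, and within ex14 all arrays with HGF lay below all arrays without. The genotype difference was -1.34 (SE 0.20, limma adjusted p = 0.000293) without HGF and -1.77 (adjusted p = 2.57e-05) with HGF. The change with HGF in 16HBE-ex14 was -0.53, with a 95% interval of -0.95 to -0.11 and an adjusted p of 0.208, and in 16HBE-WT it was -0.10, with an interval of -0.52 to 0.32. The lower level held its call with normexp background correction, which pulls dim probes together, but the difference shrank to -0.81 without HGF and -0.95 with HGF.

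TNC, read by 1 probe, measured -0.55, -0.49, 0.02 and -0.46 in 16HBE-WT and -0.57, -0.68, -0.30 and -0.10 in 16HBE-WT+HGF. It measured -0.84, -0.87, -1.05 and -1.10 in 16HBE-ex14 and -1.35, -1.08, -1.40 and -1.38 in 16HBE-ex14+HGF. The genotypes did not overlap at either state of HGF, whereas the ex14 arrays with and without HGF did. The difference without HGF, -0.60 or 1.51-fold lower (SE 0.15, limma adjusted p = 0.0122), lay just past the fold limit. It lost the call without 16HBE-WT replicate 3, the one array of its condition above 0 (-0.46), and without 16HBE-ex14 replicate 3 (-0.57) or 4 (-0.55). With HGF the difference was -0.89 (adjusted p = 0.000711) and the call held without any single array.

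THBS1 is an inhibitor of blood vessel growth and an activator of latent TGF-beta. Its brighter probe measured 5.66, 5.51, 6.08 and 5.58 in 16HBE-WT, 5.39, 5.56, 5.59 and 5.88 in 16HBE-WT+HGF, 5.04, 5.40, 4.87 and 5.28 in 16HBE-ex14, and 4.85, 4.53, 4.51 and 4.63 in 16HBE-ex14+HGF. The ex14 arrays with HGF were thus the lowest 4 of the series, none of them overlapping with another condition. Without HGF the genotype difference of -0.56 (limma adjusted p = 0.0183) passed the p-value but at 1.48-fold fell short of the fold limit, while the second probe, shown above, was called at -0.66, or 1.58-fold (adjusted p = 0.017). With HGF the probes gave -0.97 (adjusted p = 0.000417) and -1.02 (adjusted p = 0.000914). HGF in 16HBE-ex14 moved them by -0.51 (adjusted p = 0.0976) and -0.53 (adjusted p = 0.148), with 1 array overlapping on the second probe. Neither was called, except that the brighter probe passed without 16HBE-ex14 replicate 3 (-0.61).

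CCDC80, a secreted protein of the matrix also known as DRO1, was lower in the clone and fell further with HGF. It measured 2.68, 2.46, 2.63 and 2.69 in 16HBE-WT, 2.13, 2.36, 2.02 and 2.48 in 16HBE-WT+HGF, 1.83, 1.92, 1.44 and 2.08 in 16HBE-ex14, and 0.98, 0.60, 0.67 and 0.68 in 16HBE-ex14+HGF. The 4 arrays of 16HBE-ex14+HGF lay apart from all others, while 1 array of 16HBE-ex14 reached into the range of 16HBE-WT+HGF. HGF lowered the gene in 16HBE-ex14 by 1.08 on the log2 scale, or 2.12-fold (SE 0.14, limma adjusted p = 0.00156). In 16HBE-WT the change was -0.37 (adjusted p = 0.95), with a 95% interval of -0.67 to -0.06. Between the genotypes the difference was -0.80 without HGF (adjusted p = 0.00134) and -1.51 with HGF, or 2.86-fold (adjusted p = 6.63e-06).

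CCDC80 had 3 further probes. Probe 4, annotated like the first to transcript variant 1, gave -1.10 for HGF in 16HBE-ex14 (limma adjusted p = 0.0178), -0.81 for the genotypes without HGF (adjusted p = 0.0233) and -1.49 with HGF (adjusted p = 0.000365). Both probes annotated to transcript variant 1 thus moved in the same direction. Without HGF, however, the genotypes overlapped on probe 4, with differences of -0.47 on slide 1 and -1.15 on slide 2, and did not overlap on probe 1. Probes 2 and 3 carry an Ensembl annotation of the gene and were above background on 0 of the 8 ex14 arrays. Probe 2, above background on 3 of 16 arrays, was not tested. Probe 3 passed the filter through 5 arrays, all of wild-type cells, so its p-values are no support for a difference and are not given. Without HGF, probe 2 was at least 1.54-fold lower in the clone, and probe 3 at least 1.63-fold. These bounds set the mean of 16HBE-WT, with 3 of 4 arrays above background for each probe, against the lowest level that counted as above background on the ex14 arrays, or the probe's own level where higher. With HGF, probe 3 was at least 1.40-fold lower, with 2 of 4 arrays of 16HBE-WT+HGF above background.

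FBLN1, a fibulin of basement membranes and elastic fibres that binds fibronectin, went the other way between the genotypes and fell with HGF. It measured 1.97, 1.79, 2.25 and 2.02 in 16HBE-WT and 1.51, 1.64, 1.69 and 1.88 in 16HBE-WT+HGF. In 16HBE-ex14 it measured 3.92, 4.14, 3.83 and 4.14, and in 16HBE-ex14+HGF 3.13, 3.18, 2.87 and 3.15. Every ex14 array was above every wild-type array, and in the clone HGF lowered all 4 arrays below all 4 without it. The clone exceeded wild-type cells by 2.00, or 4.01-fold, without HGF (SE 0.12, limma adjusted p = 1.15e-07) and by 1.41, or 2.65-fold, with HGF (adjusted p = 2.94e-06). HGF lowered FBLN1 in 16HBE-ex14 by 0.92 on the log2 scale, or 1.90-fold (adjusted p = 0.00156). In 16HBE-WT the change was -0.33 (adjusted p = 0.92), with an interval of -0.59 to -0.07.

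The 3 FBLN1 probes lie at different places in the gene. Probe 1, used above, is annotated to transcript variant D, and probes 2 and 3 to variant C. Probe 2, shown above and crossing a junction, gave 1.37 for the genotypes without HGF (limma adjusted p = 7.37e-07), 0.90 with HGF (adjusted p = 2.64e-05) and -0.66 for HGF in 16HBE-ex14 (adjusted p = 0.00288). Probe 3 gave 2.00 (adjusted p = 2.16e-06), 1.64 (adjusted p = 1.07e-05) and -0.55 (adjusted p = 0.0962). The direction was shared by all 3 probes in all 3 comparisons, and the fall with HGF was called on 2 of them.

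HTRA1, a secreted protease that cleaves fibronectin and other matrix proteins, was higher in the clone. It was dim in wild-type cells, at -4.05, -3.03, -2.47 and -3.62 in 16HBE-WT, where the lowest array was not above background, and at -3.54, -3.89, -2.64 and -2.63 in 16HBE-WT+HGF. It measured -2.27, -1.97, -1.97 and -2.11 in 16HBE-ex14 and -1.17, -1.26, -0.97 and -1.24 in 16HBE-ex14+HGF. The spread was wide in wild-type cells and narrow in the clone, where the arrays with HGF all lay above those without. The clone exceeded wild-type cells by 1.21 (SE 0.32, limma adjusted p = 0.0149) without HGF and by 2.01, or 4.04-fold, with HGF (adjusted p = 0.000425). The change with HGF in 16HBE-ex14 was 0.92, with an interval of 0.24 to 1.6 and an adjusted p of 0.166. Without 16HBE-WT replicate 1, the genotype difference at no HGF was 0.96 (adjusted p = 0.0502), and with normexp background correction it was 0.23 and the difference with HGF 0.71, of which the latter kept its call.

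Among the 8 tested genes, PXDN, the peroxidase that forms sulfilimine bonds in collagen IV, was the 1 called higher with HGF. It measured 5.43, 5.52, 5.86 and 5.56 in 16HBE-WT, 5.61, 5.61, 5.62 and 5.94 in 16HBE-WT+HGF, 4.53, 4.58, 5.04 and 4.68 in 16HBE-ex14, and 5.53, 5.30, 5.62 and 5.56 in 16HBE-ex14+HGF. The clone without HGF stood apart below the other 3 conditions, and with HGF its arrays overlapped those of wild-type cells. HGF raised PXDN in 16HBE-ex14 by 0.79, or 1.73-fold (SE 0.13, limma adjusted p = 0.00522), against 0.10 in 16HBE-WT (adjusted p = 1). Between genotypes the difference was -0.88, or 1.85-fold, without HGF (adjusted p = 0.000372) and -0.19 with HGF (adjusted p = 0.357), with an interval of -0.48 to 0.09. A second PXDN probe, which shares 28 bases with the first and so is not an independent reading, gave 0.79, -0.90 and -0.21 in the same order. Scaled to the E1A spike-ins, the rise with HGF was 0.71 (adjusted p = 0.0576), and fitted on the arrays compared alone it was 0.79 (adjusted p = 0.0502).

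SPARC, a matricellular protein that binds collagen, fell with HGF in the clone and did not separate the genotypes. It measured 6.45, 6.05, 6.73 and 6.56 in 16HBE-WT, 6.0, 6.04, 5.82 and 6.44 in 16HBE-WT+HGF, 6.40, 6.98, 6.60 and 6.91 in 16HBE-ex14, and 6.07, 5.92, 5.79 and 5.78 in 16HBE-ex14+HGF. The clone's arrays with HGF all lay below those without, and all other comparisons overlapped. HGF lowered SPARC in 16HBE-ex14 by 0.83 on the log2 scale, or 1.78-fold (SE 0.17, limma adjusted p = 0.0166). In 16HBE-WT the change was -0.37 (adjusted p = 1), with an interval of -0.74 to -0.01. Between the genotypes the difference was 0.27 without HGF (interval -0.09 to 0.64) and -0.19 with HGF (interval -0.55 to 0.18). The call for HGF in 16HBE-ex14 was lost without 16HBE-ex14 replicate 2 (-0.75, adjusted p = 0.0679) or 4 (-0.77, adjusted p = 0.0673) and without 16HBE-ex14+HGF replicate 3 (-0.80, adjusted p = 0.0608) or 4 (-0.80, adjusted p = 0.0573). It was also lost with scaling to the E1A spike-ins (-0.92, adjusted p = 0.055) and on the arrays compared alone (-0.83, adjusted p = 0.053).

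LOX, the enzyme that crosslinks collagen and elastin, was not above background on any of the 16 arrays, although its probe is spotted 10 times on each. FBLN5, a fibulin needed for elastic fibre assembly, was above background on 3 of 16 arrays: 2 of 16HBE-ex14, at -4.25 and -4.19, and 1 of 16HBE-ex14+HGF, at -4.26. Neither gene gives a fold change here. The lowest level that counted as above background on an array ranged from -4.95 to -3.77.

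**Figure D2:**
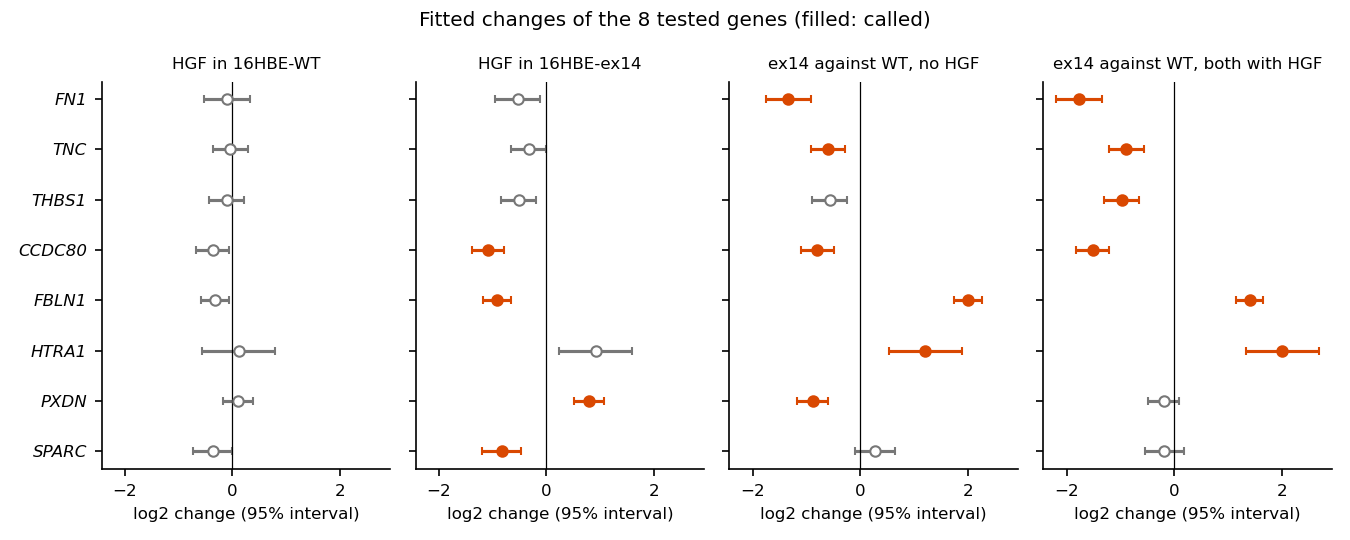
Fitted log2 change of the 8 tested genes in 4 comparisons, with 95% intervals from limma. Filled points passed an adjusted p of 0.05 and a 1.5-fold change. No gene was called for HGF in 16HBE-WT, 4 were called for HGF in 16HBE-ex14, and 6 in each comparison of the genotypes.

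Counted by comparison, HGF in 16HBE-ex14 gave 4 calls among the 8 tested genes, 1 higher (PXDN) and 3 lower (CCDC80, FBLN1 and SPARC), where 2% of all 34599 tested probes were called in either direction. The median change of the 8 was -0.52, beside 0.05 for all tested probes. Without overlap between the 4 arrays with and the 4 without HGF were 7 genes, 2 higher and 5 lower, against 8.84% of probes over the whole array. The genes were chosen with earlier results of these samples known, so this count is not independent evidence of a response. In 16HBE-WT no gene was called by limma, with a background of 0% called, and no gene was free of overlap, with a background of 2.61%. Of the 8, 3 had an unadjusted limma p below 0.05 in 16HBE-WT (CCDC80, FBLN1 and SPARC), beside 1694 of all 34599 tested probes. The median change of the 8 there was -0.11, beside 0.04 for all tested probes.

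Between genotypes, 6 of 8 genes were called without HGF, 2 higher (FBLN1 and HTRA1) and 4 lower (FN1, TNC, CCDC80 and PXDN), where 9.4% of all tested probes were called. The median change was -0.58, beside -0.02 for all tested probes, and 7 genes did not overlap, against 21.4% of probes. With HGF in both, 6 of 8 were called, again 2 higher (FBLN1 and HTRA1) and 4 lower (FN1, TNC, THBS1 and CCDC80), where 10.8% of all tested probes were called. The median change was -0.54, beside 0.00 for all tested probes, and 6 genes did not overlap, against 23.9% of probes. The comparisons share conditions: 16HBE-ex14 enters both the HGF comparison of the clone and the genotype comparison without HGF, so their values are not independent of each other.

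Whether HGF acted differently in the genotypes was tested as the difference of the 2 changes. None of the 8 genes was called by limma, and 0% of all tested probes were. Unadjusted limma p-values below 0.05 were found for 3 of the 8, beside 1600 of all 34599 tested probes. CCDC80 had a difference of -0.72 (95% interval -1.15 to -0.29, adjusted p = 0.633) and FBLN1 one of -0.60 (interval -0.96 to -0.23, adjusted p = 0.643). PXDN had a difference of 0.69 (interval 0.29 to 1.09, adjusted p = 0.609). For the other 5 the intervals included 0. The calls in 16HBE-ex14 and their absence in 16HBE-WT are therefore no evidence, after adjustment, that the responses differed.

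The arrays lay on 2 slides, each with 2 arrays of every condition, so that each comparison could be made within a slide. All 16 calls were kept with slide as a block. The genotype differences of TNC were -0.33 on slide 1 and -0.86 on slide 2 without HGF, and -0.59 and -1.19 with HGF. Those of FN1 were -1.15 and -1.53 without HGF and -1.38 and -2.16 with HGF, and those of THBS1 with HGF -0.79 and -1.16. FBLN1 differed by 2.15 and 1.85 without HGF and by 1.58 and 1.23 with HGF, HTRA1 by 1.42 and 1.01 without HGF and by 2.5 and 1.53 with HGF, CCDC80 by -0.69 and -0.90 without HGF and by -1.45 and -1.58 with HGF, and PXDN by -0.92 and -0.85 without HGF. The sign was thus the same on both slides for each genotype call. For HGF in 16HBE-ex14 the slides gave -1.08 and -1.08 for CCDC80, -0.87 and -0.97 for FBLN1, 0.86 and 0.73 for PXDN, and -0.70 and -0.97 for SPARC.

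Across the 16 arrays the genes fell into patterns that the comparisons above had already separated. Pearson's r was 0.96 for FN1 with TNC, 0.94 for FN1 with THBS1, 0.94 for CCDC80 with THBS1 and 0.92 for TNC with THBS1. The lowest value was -0.87, for CCDC80 with HTRA1, and FBLN1 with PXDN gave -0.82. These values describe points that share arrays and conditions, and carry no p-value. Among 17684 named genes, those most like FN1 over the 16 arrays were RIMS3 and CSPG4 (r = 0.98 each), those most like THBS1 were HSPG2 (r = 0.99), which encodes the basement membrane proteoglycan perlecan, and CRYBG2 (r = 0.98), and those most like TNC were FN1 itself (r = 0.96) and KRT16P2 (r = 0.95). CCDC80 was most like SAA1 (r = 0.99), an acute-phase protein, and ENPP1 (r = 0.98), and FBLN1 most like CCL2 (r = 0.99), a chemokine for monocytes, and MDK (r = 0.99), the heparin-binding growth factor midkine. For PXDN they were EHD3 and FYN (r = 0.96 each), for SPARC MED14 and ABLIM3 (r = 0.97 each), and for HTRA1 CMTM7 and NKD2 (r = 0.96 each).

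Since FN1, TNC and THBS1 moved together and CCDC80 with them, while FBLN1 moved against them between the genotypes, their promoters are shown, as the 250 bases before the RefSeq transcription start, with matches to the Sp1 box GGGCGG, read on either strand, in capitals.
FN1 promoter (GRCh38.p14 chr2:215436069-215436318, minus strand): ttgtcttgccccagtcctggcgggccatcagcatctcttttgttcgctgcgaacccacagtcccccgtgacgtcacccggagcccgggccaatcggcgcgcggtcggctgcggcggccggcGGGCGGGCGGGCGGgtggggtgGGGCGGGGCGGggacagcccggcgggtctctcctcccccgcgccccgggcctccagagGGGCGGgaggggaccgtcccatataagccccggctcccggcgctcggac
TNC promoter (GRCh38.p14 chr9:115118158-115118407, minus strand): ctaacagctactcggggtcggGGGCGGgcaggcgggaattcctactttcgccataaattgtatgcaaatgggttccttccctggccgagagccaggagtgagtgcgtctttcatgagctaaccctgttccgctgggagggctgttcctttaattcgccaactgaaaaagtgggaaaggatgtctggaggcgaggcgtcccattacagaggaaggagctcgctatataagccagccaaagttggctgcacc
THBS1 promoter (GRCh38.p14 chr15:39580829-39581078, plus strand): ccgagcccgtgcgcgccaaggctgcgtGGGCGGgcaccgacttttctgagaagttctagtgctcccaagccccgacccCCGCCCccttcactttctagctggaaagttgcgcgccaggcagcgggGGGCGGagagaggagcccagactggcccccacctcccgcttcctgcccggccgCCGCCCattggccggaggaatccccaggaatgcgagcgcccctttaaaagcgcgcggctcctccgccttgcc
CCDC80 promoter (GRCh38.p14 chr3:112641144-112641393, minus strand): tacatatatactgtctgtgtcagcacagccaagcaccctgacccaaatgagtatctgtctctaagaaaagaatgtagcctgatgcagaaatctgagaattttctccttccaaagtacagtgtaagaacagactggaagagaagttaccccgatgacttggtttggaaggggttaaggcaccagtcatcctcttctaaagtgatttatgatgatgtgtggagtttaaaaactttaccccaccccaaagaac
FBLN1 promoter (GRCh38.p14 chr22:45502633-45502882, plus strand): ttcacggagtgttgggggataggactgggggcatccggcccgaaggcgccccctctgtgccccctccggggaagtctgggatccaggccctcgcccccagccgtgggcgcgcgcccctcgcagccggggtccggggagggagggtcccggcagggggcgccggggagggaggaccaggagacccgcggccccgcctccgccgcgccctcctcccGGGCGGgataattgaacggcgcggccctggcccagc
The box occurred 6 times for FN1, 4 times for THBS1, once each for TNC and FBLN1, and not in this window for CCDC80. Promoter windows were found for all 10 genes, 13 windows in all. GGGCGG was held by 9 of the 13, beside 42.6% of 35116 windows of the same length, the SMAD box CAGAC by 9, beside 38%, and the TEAD motif CATTCC by 2 (THBS1 and SPARC), beside 11.9%. LOX and FBLN5 have more than 1 window each, and windows of LOX overlap, so the 13 are not separate readings. By gene, GGGCGG was found for 8 of the 10 and CAGAC for 7. The AP-1 motif TGANTCA was in none of the 13 windows and in 6.57% of all. All motifs were searched on both strands. These matches are letters in a window and are not evidence of binding.

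Related matrix genes were taken as 62 genes in 6 lists: other elastic fibre genes, other matricellular genes, other crosslinking enzymes, the HTRA relatives, relatives of CCDC80 and other adhesive glycoproteins. Of these, 48 were tested. HGF in 16HBE-ex14 gave 4 calls (8.33%), 1 higher and 3 lower, and HGF in 16HBE-WT gave 0. The genotypes gave 13 calls without HGF (27.1%), 3 higher and 10 lower, and 18 with HGF (37.5%), 4 higher and 14 lower. MFAP2 in both counts and SMOC2 in the second owed their test to the arrays of 1 genotype. Their calls are no support for a difference. The difference of HGF responses gave 0 calls. The shares for all tested probes were 2%, 9.4% and 10.8% in the 3 comparisons with calls.

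**Figure D3:**
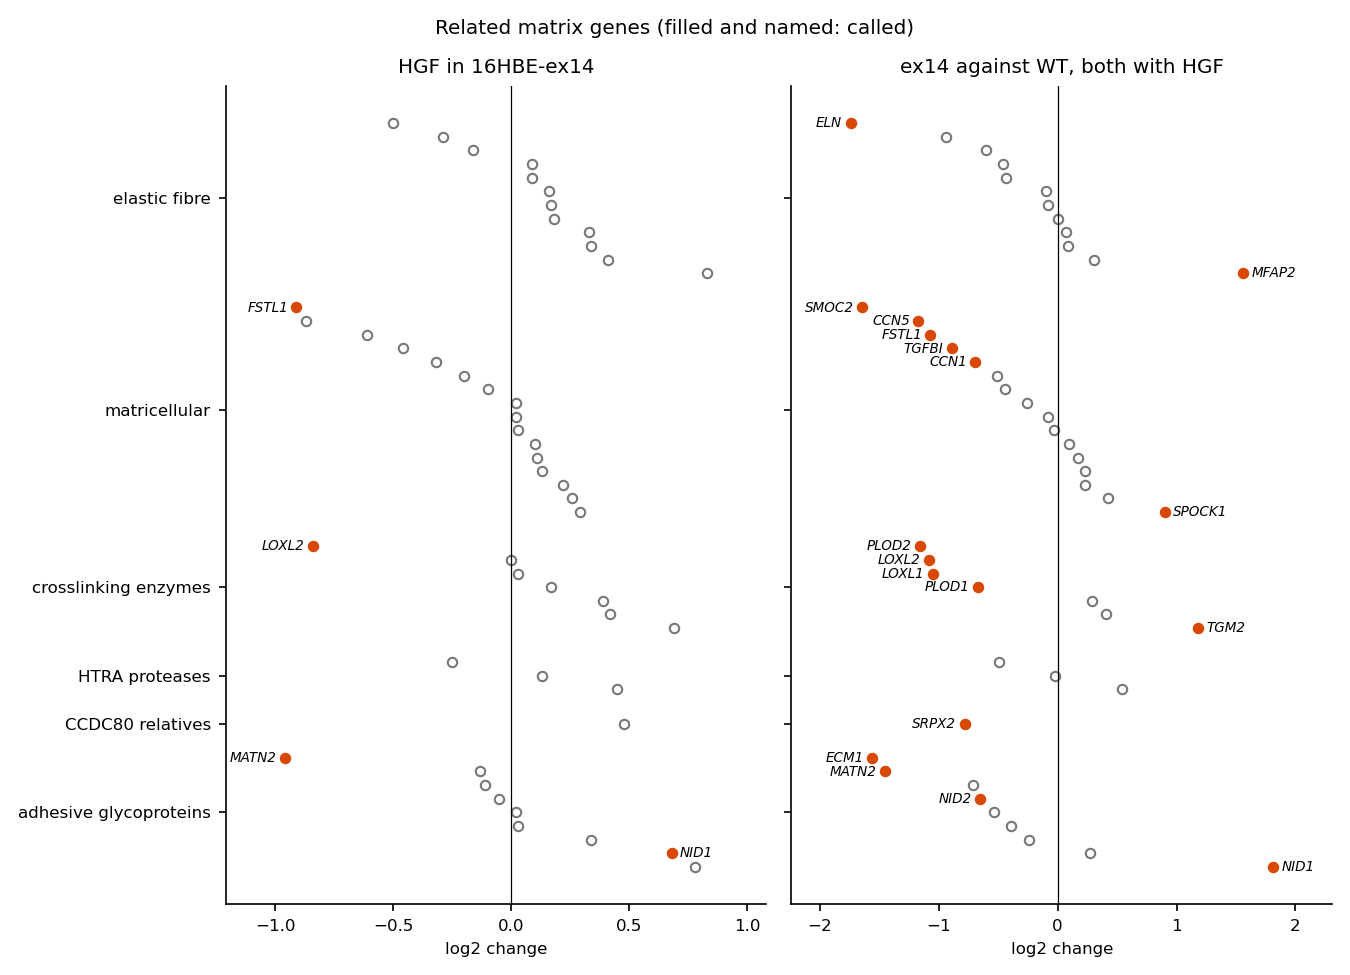
Log2 change of the 48 tested related genes for HGF in 16HBE-ex14 and for the genotypes with HGF, ordered within each list, with called genes filled and named. The value plotted for SMOC2 with HGF is a measured difference to a probe below background. Of the called genes, 3 of 4 and 14 of 18 lie left of 0.

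For HGF in 16HBE-ex14, the genes that fell were MATN2, a matrilin, by 0.96 on the log2 scale (SE 0.16, limma adjusted p = 0.00565), FSTL1, a secreted relative of SPARC, by 0.91 (adjusted p = 0.00784), and LOXL2, a lysyl oxidase relative, by 0.84 (adjusted p = 0.00878). NID1, a basement membrane linker, rose by 0.68 (adjusted p = 0.0113). In 16HBE-WT the changes with HGF had the same signs, at -0.66 for MATN2, -0.33 for FSTL1, -0.31 for LOXL2 and 0.39 for NID1. None of these was called. Among the crosslinking enzymes, 5 of 7 tested were called between the genotypes with HGF: LOXL1, LOXL2, PLOD1 and PLOD2 lower and TGM2, the tissue transglutaminase, higher. Without HGF these were LOXL1 at -1.26, PLOD2, a lysyl hydroxylase, at -1.20, PLOD1 and TGM2. Of the LOX relatives, LOXL4 was not above background on any array.

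Among elastic fibre genes, 2 of 12 tested were called. ELN, elastin itself, was lower in the clone, at -1.54 without HGF (limma adjusted p = 0.00607) and at -1.74 with HGF (adjusted p = 0.0023). MFAP2, a microfibril protein, was higher by 0.95 and 1.56, with 1 of 4 arrays above background in each wild-type condition. It would not have passed the filter without the ex14 arrays, so its calls are no support for a difference. Among matricellular genes the count was 1 of 16 without HGF (TGFBI, lower) and 6 of 16 with HGF. Of these 6, 1 was higher (SPOCK1) and 5 were lower (TGFBI, FSTL1, CCN1, CCN5 and SMOC2). SMOC2, above background on 0 of 4 arrays of 16HBE-ex14+HGF, was at least 2.23-fold lower there than in 16HBE-WT+HGF. It would not have passed the filter without the wild-type arrays, so its p-value is no support for a difference and is not given. Among the other adhesive glycoproteins, 4 of 9 were called in each genotype comparison. NID1 was higher by 1.53 without HGF (adjusted p = 3e-06) and by 1.81 with HGF (adjusted p = 5.31e-07), while ECM1 was lower at -2.34 and -1.56, MATN2 at -1.16 and -1.45, and NID2 at -0.75 and -0.65. Of 3 HTRA relatives, HTRA2, the mitochondrial member, was called lower without HGF (-0.65) and none with HGF. The SRPX2 gene, the tested relative of CCDC80, was lower at -0.98 and -0.78.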

How the data were processed

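Total RNA of 16HBE cells was labelled with Cy3 and hybridised to one-colour Agilent 60-mer arrays, 4 per condition. Per the file headers, the intensity values deposited by the authors (processed signals, linear scale) came from Feature Extraction 10.7.3.1, background-subtracted and not normalized between arrays, with probe coordinates on hg19. The deposited flags for outlier and above-background spots were used as given. The values of the series-wide table were identical to these signals and were not used.

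Here, log2 intensities were centred on each array's 75th percentile over all spots that are not controls. Outlier spots were dropped and spots of a probe averaged. Testing was limited to probes with over 50% of their spots well above background on 4 or more of 16 arrays, which left 34599 of 58201 probes. limma 3.58.1 (R 4.3.3) fitted 1 mean per condition to all 16 arrays and adjusted p-values over all tested probes (Benjamini-Hochberg). The fit was tested on simulated data. The replicates' number limits the precision. No 2 arrays of a condition were identical (r of 0.983 to 0.992 over 24 pairs). Genes named were the members by their brightest probe, MET and HGF, up to 6 called genes of largest change per comparison from the related lists, and the 2 most similar genes per member by Pearson's r, leaving out uncharacterised names. Other called list genes are named where a list is counted and were chosen after their values were seen. The members and lists were chosen with earlier results of these data known. Replicate numbers were given in the order of deposition. Alternatives were another background correction, scaling to quantiles, the median or spike-ins, other filters, outlier spots kept, slide and replicate blocks, array weights, the compared arrays alone, no fold limit, gene means and each array left out. Promoter windows came from RefSeq (GRCh38.p14) and were not joined to hg19 coordinates.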

Additional observations from a re-analysis of the deposited data

Results flagged for a closer look

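In 3 of 32 groups of 4 arrays, 1 array stood apart from the other 3 by more than Dixon's 95% critical value for its gap as a share of the group's whole range. Chance gives about 1 in 20. The level of PXDN in 16HBE-WT+HGF was 5.94 on replicate 4 beside 5.61 to 5.62 on the others (a gap of 0.971 of the range). The level of TNC in 16HBE-WT was 0.02 on replicate 3 beside -0.55 to -0.46 (0.838), and in 16HBE-ex14+HGF it was -1.08 on replicate 2 beside -1.40 to -1.35 (0.849). The call of TNC between the genotypes without HGF was lost when 16HBE-WT replicate 3 was left out (-0.46), and the call with HGF held without any single array.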

How the results depend on the processing

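The 16 calls of single genes were recomputed under 13 settings and with each of 16 arrays left out. Of 464 values, 447 kept direction and call, 17 kept direction only and 0 reversed. Part of these could not come out otherwise. Without a fold limit no call can be lost, and leaving out an array outside a comparison cannot change its log2 value. Among the 8 tested genes, the calls for HGF in 16HBE-ex14 dropped from 4 to 2 with scaling to the E1A spike-ins (8 probes), which took PXDN (0.71, adjusted p = 0.0576) and SPARC (-0.92, adjusted p = 0.055) out; the cause was not tested. Fitted on the compared arrays alone, PXDN (0.79, adjusted p = 0.0502) and SPARC (-0.83, adjusted p = 0.053) lost the call and HTRA1 gained one. Over all tested probes, the calls for HGF in 16HBE-ex14 went from 693 to 246 on the compared arrays alone, to 411 with normexp, and to 346 without 16HBE-ex14 replicate 2, 374 without its replicate 4, and 377 and 442 without 16HBE-ex14+HGF replicates 3 and 4. The genotype calls went from 3252 and 3749 to 1489 and 1814 with normexp and to 6349 and 7125 with no fold limit, and the difference of responses from 0 to 4 with normexp, to 11 without 16HBE-ex14 replicate 3 and to 1 without 16HBE-WT+HGF replicate 3. HGF in 16HBE-WT went from 0 to 1 without 16HBE-WT+HGF replicate 2. Leaving out 1 array gave 3 to 5 calls for HGF in 16HBE-ex14, 5 to 7 for the genotypes without HGF, 6 with HGF, and 0 for HGF in 16HBE-WT and for the difference of responses. For these 8 genes the other settings gave counts within 1.5 times the reported ones. TNC without HGF fell under the fold limit with normexp (-0.45), median scaling (-0.46) and array weights (-0.56), and gave -0.49 with spike-in scaling (adjusted p = 0.0873). THBS1 without HGF was called under quantile normalization (-0.66), with probes averaged (-0.61), with no fold limit (-0.56), and without 16HBE-WT replicate 2 (-0.63) or 4 (-0.61) or 16HBE-ex14 replicate 2 (-0.65) or 4 (-0.61).

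Scaling to the array median moved the median change of all tested probes from 0.05 to -0.11 for HGF in 16HBE-ex14 and from -0.02 to 0.12 for the genotypes without HGF. The share of all calls that were higher went from 52.2% to 24.1% for HGF in 16HBE-ex14, from 48% to 71.8% for the genotypes without HGF and from 49.1% to 66% with HGF. With spike-in scaling these shares were 40.5%, 67.8% and 60%. Median scaling took 0 of the 4 calls for HGF in 16HBE-ex14 away.

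The labels do not pair the replicate numbers, which followed the order of deposition and coincided with slide and row. Deviations of same-numbered arrays from their group means correlated at 0.03 to 0.32, and 4 of 16 arrays correlated best with their own number. With the replicate block the counts were 4 for HGF in 16HBE-ex14, 6 for the genotypes without HGF, 6 with HGF and 0 in the other 2 comparisons, and no call changed. Dim probes, HTRA1 above all, limit the precision.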
